A study of Homo sapiens with 2 samples.

Results

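Kinetochore, centromere and spindle checkpoint genes were compared between HT1080 cells carrying a cMyc shRNA and HT1080 cells carrying a non-targeting control shRNA. The group was made of 31 named genes of these structures plus every gene whose symbol is CENP followed by a single letter, CENPJ excepted. The rule uses no measured value, but it was written with earlier results of these arrays known. The platform annotation named 39 of them on the array (23 of the 31 named genes and 16 CENP genes) out of 14884 named genes in all. Each of the 39 was read by 1 probe set. DSN1, NSL1, PMF1, MIS12, NUF2, SPC24, SPC25 and ZWILCH, and among the CENP genes CENPB, CENPE, CENPF and CENPS, were not analysed here.

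HT1080 is an established human fibrosarcoma cell line. Both cultures were infected with shRNA-carrying virus and harvested 48 hours later. Whether infection was equal in both was not tested. Total RNA from each was read on an Affymetrix Human Gene 2.0 ST array, which summarises several short probes into 1 value per probe set. There was 1 array per condition. No replicate spread exists, no test was run, and the number of hairpins is not given in the sources used here. All values are log2 levels as deposited, and every difference is the cMyc shRNA array minus the control shRNA array on that scale. The only measure of error is technical: over 416 genes read by more than 1 probe set, 1 probe set's log2 difference had an SD of 0.34, and the gap between a pair of such differences an SD of 0.48. It holds no variation between cultures.

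The kinetochore is the protein assembly that ties a chromosome to spindle microtubules in mitosis. It is built on centromeric chromatin marked by the histone variant CENP-A, on which the constitutive centromere-associated network (CCAN) sits. The outer KMN network, made of the KNL1, MIS12 and NDC80 complexes, grips the microtubule with the help of the SKA complex. Unattached kinetochores recruit MPS1, BUB and MAD proteins, which hold back anaphase, and the chromosomal passenger complex frees wrong attachments. Many of these genes are transcribed mainly in G2 and mitosis, and many of their promoters carry a cell cycle homology region (CHR), the short element through which the MuvB-containing DREAM and FOXM1 complexes act.

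Messenger RNA of most of these genes was lower on the cMyc shRNA array. Of the 39 members, 25 (64.1%) passed 2-fold on the lower side, as 4% of the 10258 measured genes did. On the higher side 0 members passed 2-fold, as 2.01% of measured genes did. Below 0 were 38 members, beside 51.3% of measured genes. A gene counted as measured when the mean of both arrays reached the median over all probe sets, 3.70, and all 39 members did. The median log2 difference of the members was -1.37 (2.58-fold lower), with quartiles of -1.88 and -0.74, against -0.01 over all measured genes, with quartiles of -0.31 and 0.26. At least 3-fold lower were 15 members, beside 1.1% of measured genes, and at least 4-fold lower 9 members, beside 0.478%. Mitotic genes were already known to be low on this array when the members were chosen, so these shares describe the set and are no support for it.

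MYC had levels of 7.09 (control) and 6.16 (cMyc shRNA), a log2 difference of -0.93 or 1.91-fold lower, in the direction of its label. Of 9 proliferation markers, 6 were at least 2-fold lower, beside 4% of measured genes. Differences over the 9 ran from -2.70 for MKI67 to 0.01 for PCNA, the replication clamp. All 10 listed interferon-stimulated genes were at least 2-fold higher, beside 2.01% of measured genes. Their levels were 2.63 to 4.86 on the control array and 4.94 to 9.68 on the cMyc shRNA array. Their differences ran from 2.31 (IFI44L) to 6.90 (IFIT1). Both lists were chosen with earlier results of these arrays known, so these counts describe them and are no support. IFI44L, IFIT1, IFIT2, HERC5 and MX2 lay under the level of 3.70 on the control array and counted as measured only through the cMyc shRNA array, so the sizes of their differences are uncertain. The part of either list in the differences below was not tested. In bulk RNA, fewer cells in G2 and mitosis and less of each transcript per cell cannot be told apart. Of 16 mesenchymal markers, 7 were measured and none reached 2-fold, between VIM at -0.59 and THY1 at 0.36, and FN1, the fibronectin gene typical of mesenchymal cells, read 12.4 and 12.6. CDH2 and the collagens were not analysed here. Of the markers of other cell types, 4 of 9 epithelial, 2 of 8 haematopoietic and 0 of 5 endothelial genes were measured. Levels did not divide cleanly by list. EPCAM, an epithelial gene, read 2.73 and 3.07, but KRT18, also epithelial, read 9.09 and 8.41. CD68, from the haematopoietic list, read higher than KRT18 on both arrays. S100A4, from the mesenchymal list, lay under 3.70 on both. Differences of the measured genes ran from -0.69 (KRT18) to 0.53 (CLDN7) in the epithelial list. In the haematopoietic list they were -0.08 (SPI1) and 0.91 (CD68).

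**Figure D1:**
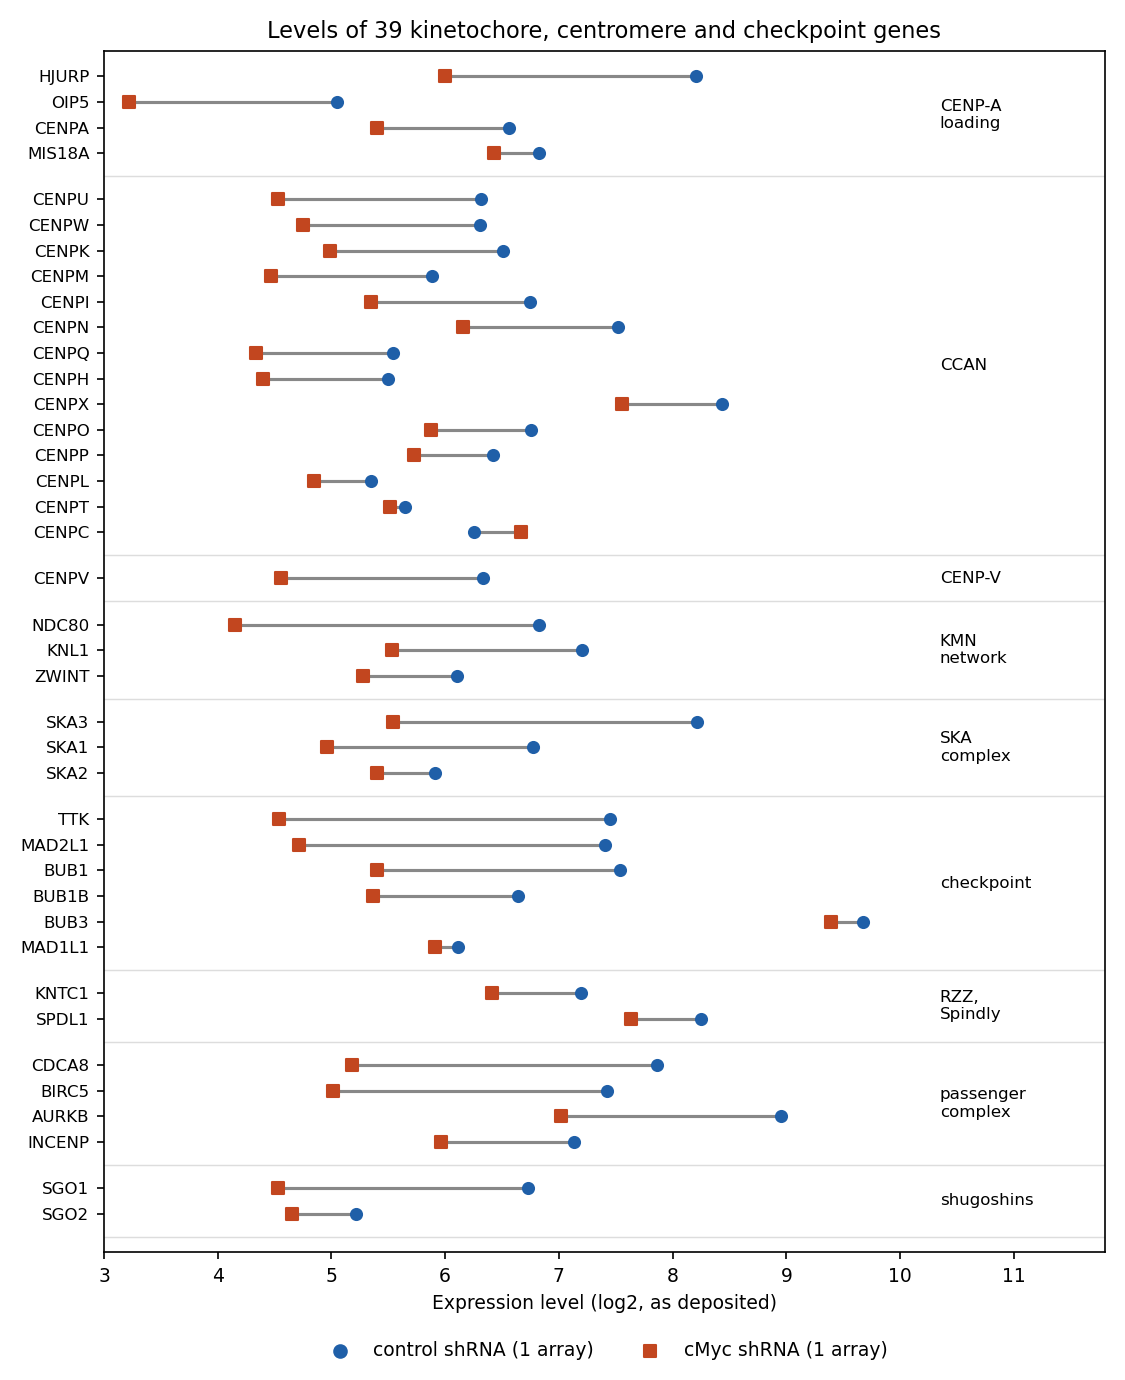
Log2 expression level (horizontal axis) of each of the 39 members on the control shRNA array (blue circles) and the cMyc shRNA array (orange squares), 1 array each, grouped by complex. The cMyc shRNA value lies to the left for 38 members and to the right for CENPC alone.

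Promoters of 6 members are shown first, because they set genes with the lowest log2 differences beside partners in the same complex with differences nearer to 0. They are the lowest and the highest member with a promoter entry in the checkpoint group, the SKA complex and the chromosomal passenger complex. TTK, the lowest checkpoint gene, has no entry, and MAD2L1, the next lowest, stands in for it. Sequences are from RefSeq (GRCh38.p14), 220 bases before to 30 bases after the start, read 5′ to 3′ on the gene's strand. Capitals mark CHR elements (TTTGAA or TTCGAA) and CCAAT boxes (CCAAT) on either strand.
MAD2L1 (chr4:120066819-120067068, minus strand, log2 difference -2.69): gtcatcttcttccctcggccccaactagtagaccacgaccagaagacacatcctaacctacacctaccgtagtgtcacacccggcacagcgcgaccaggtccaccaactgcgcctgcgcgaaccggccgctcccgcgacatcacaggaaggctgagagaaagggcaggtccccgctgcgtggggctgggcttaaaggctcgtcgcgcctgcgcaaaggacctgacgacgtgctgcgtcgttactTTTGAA
MAD1L1 (chr7:2232916-2233165, minus strand, log2 difference -0.20): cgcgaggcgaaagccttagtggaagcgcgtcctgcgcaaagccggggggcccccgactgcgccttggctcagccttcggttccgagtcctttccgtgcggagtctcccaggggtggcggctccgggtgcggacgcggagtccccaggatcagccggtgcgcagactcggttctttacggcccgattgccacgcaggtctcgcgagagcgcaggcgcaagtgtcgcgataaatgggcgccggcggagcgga
SKA3 (chr13:21176523-21176772, minus strand, log2 difference -2.68): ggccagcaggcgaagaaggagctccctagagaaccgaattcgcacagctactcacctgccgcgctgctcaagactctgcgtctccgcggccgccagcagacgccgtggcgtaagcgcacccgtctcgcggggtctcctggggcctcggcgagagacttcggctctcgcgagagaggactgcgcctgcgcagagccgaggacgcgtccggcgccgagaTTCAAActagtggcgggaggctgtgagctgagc
SKA2 (chr17:59155157-59155406, minus strand, log2 difference -0.51): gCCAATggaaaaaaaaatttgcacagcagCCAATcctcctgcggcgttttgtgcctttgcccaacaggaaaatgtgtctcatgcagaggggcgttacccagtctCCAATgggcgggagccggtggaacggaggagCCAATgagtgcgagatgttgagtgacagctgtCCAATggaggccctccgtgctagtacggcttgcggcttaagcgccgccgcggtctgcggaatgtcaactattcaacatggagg
CDCA8 (chr1:37692296-37692545, plus strand, log2 difference -2.68): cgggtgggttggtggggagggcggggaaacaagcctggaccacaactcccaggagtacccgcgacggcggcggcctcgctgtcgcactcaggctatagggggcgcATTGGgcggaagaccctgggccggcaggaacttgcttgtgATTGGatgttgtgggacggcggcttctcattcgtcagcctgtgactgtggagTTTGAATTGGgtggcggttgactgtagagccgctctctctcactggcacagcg
INCENP (chr11:62123791-62124040, plus strand, log2 difference -1.17): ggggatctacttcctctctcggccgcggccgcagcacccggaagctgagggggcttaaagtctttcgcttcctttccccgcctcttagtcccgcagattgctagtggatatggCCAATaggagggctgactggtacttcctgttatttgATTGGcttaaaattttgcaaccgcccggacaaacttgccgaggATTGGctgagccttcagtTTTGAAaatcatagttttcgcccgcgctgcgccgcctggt

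In these windows the MAD2L1, SKA3, CDCA8 and INCENP promoters each hold 1 CHR match, and those of MAD1L1 and SKA2 hold none. The CDCA8 match shares its last base with a CCAAT box, so both appear as 1 run of capitals. SKA2 has 5 CCAAT boxes without a CHR match. INCENP has the CHR match with 3 CCAAT boxes, as CDCA8 has, although its log2 difference was 1.51 closer to 0. A match is only a string of letters and does not show that a factor binds there.

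Genes that build CENP-A chromatin were lower in 4 of 4 cases, 3 of them at least 2-fold. CENPA, the histone variant itself, had levels of 6.56 (control) and 5.40 (cMyc shRNA), a difference of -1.16; pairs of levels are given in this order throughout. HJURP, the chaperone that deposits CENP-A, went from 8.21 to 6.0 (4.63-fold lower), the lowest of the group. OIP5 and MIS18A are both subunits of the MIS18 complex, which licenses that deposition, and their differences lay apart. OIP5 read 5.05 and 3.22, a difference of -1.83, with the second value under the median of all probe sets, so its fold is uncertain. MIS18A read 6.83 and 6.43, a difference of -0.40, which is little more than the technical SD. The gap between HJURP and MIS18A was 1.81.

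The CCAN, the inner layer that stays on centromeres through the cell cycle, had 14 measured genes with a median of -1.15. Past 2-fold on the lower side were 8 of them, past 3-fold 1, and on the higher side 0 passed 2-fold. Its subcomplexes were not alike. CENPH, CENPI, CENPK and CENPM, which form 1 subcomplex, were all past 2-fold, within a narrow band of differences from -1.52 (CENPK, 6.50 to 4.98) to -1.10 (CENPH, 5.49 to 4.40). CENPM read 5.88 and 4.46 and CENPI 6.75 and 5.35, inside that band.

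CENPO, CENPP, CENPQ and CENPU belong to another subcomplex, and all lay between -1.78 and -0.69. CENPU, a docking site for PLK1, was the lowest CCAN gene, at 6.31 and 4.53 (3.43-fold lower). CENPQ had a difference of -1.20, CENPO of -0.87 and CENPP of -0.69. In the histone-fold subcomplex the partners spread more. CENPW went from 6.30 to 4.75 (-1.55) and CENPX from 8.43 to 7.55 (-0.88). CENPT, which dimerises with CENPW and carries the binding sites for the NDC80 complex, read 5.65 and 5.51 (-0.14). The gap of 1.41 between CENPW and CENPT compares with an SD of 0.48. CENPN, which binds the CENP-A nucleosome, read 7.52 and 6.15 (-1.37), and its partner CENPL 5.34 and 4.84 (-0.50).

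CENPC was the exception among all members. This scaffold, which links CENP-A nucleosomes to the MIS12 complex, read 6.25 and 6.67, a difference of 0.41 (1.33-fold higher). Its difference exceeded the technical SD by a small margin and did not reach 2-fold. CENPV, a CENP-named protein outside the CCAN, read 6.33 and 4.56 (-1.77).

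In the microtubule-binding layer, 3 KMN genes were measured and all were lower. NDC80, the microtubule-binding subunit that names its complex, went from 6.83 to 4.15 (6.38-fold lower). KNL1, the scaffold on which BUB proteins assemble, went from 7.20 to 5.54 (3.17-fold lower). ZWINT, the partner of KNL1, read 6.11 and 5.28 (-0.83) and stayed within 2-fold. These 3 genes do not cover the MIS12 complex or the other NDC80 subunits.

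The SKA complex, which keeps kinetochores on shortening microtubules, was uneven. SKA3 read 8.22 and 5.54 (6.40-fold lower) and SKA1 6.77 and 4.96 (3.50-fold lower). SKA2, which binds both in a single complex, read 5.91 and 5.40, a difference of -0.51. SKA2 lay 2.17 above SKA3 and 1.30 above SKA1 on the log2 difference scale, both larger than the SD of 0.48 for a gap between probe sets.

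Of the 6 checkpoint genes, 4 were at least 2-fold lower, and the other two were within 2-fold. TTK, the MPS1 kinase that starts checkpoint signalling, had the lowest difference of all members, from 7.45 to 4.54 (7.52-fold lower), and 2 of the 10258 measured genes lay lower. MAD2L1, which carries the inhibitory signal, went from 7.41 to 4.71 (6.47-fold lower). BUB1, a kinase of the checkpoint, went from 7.53 to 5.40 (4.38-fold lower), and BUB1B, which encodes the inhibitor BUBR1, from 6.64 to 5.37 (2.41-fold lower).

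Their binding partners differed little. BUB3, the shared adaptor of BUB1 and BUBR1, read 9.68 and 9.39 (-0.29). MAD1L1, which holds MAD2 at unattached kinetochores, read 6.11 and 5.91 (-0.20). Both differences are smaller than the technical SD of 0.34, and the gap was 1.84 between BUB1 and BUB3 and 2.50 between MAD2L1 and MAD1L1. KNTC1, the ROD subunit of the RZZ complex, read 7.20 and 6.41 (-0.78). SPDL1, or Spindly, the dynein adaptor at kinetochores, read 8.25 and 7.64 (-0.62). Neither reached 2-fold, and their differences lay 0.17 apart, within the technical error.

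The chromosomal passenger complex had all 4 of its genes past 2-fold on the lower side, and their median was -2.17 (4.50-fold lower). CDCA8, which encodes borealin, went from 7.86 to 5.18 and BIRC5, which encodes survivin, from 7.42 to 5.02, with differences of -2.68 and -2.40. AURKB, the kinase of the complex, went from 8.96 to 7.02 (-1.94). INCENP, its scaffold and activator, went from 7.13 to 5.96 (-1.17). The shugoshins, which protect centromeric cohesion, were unlike each other: SGO1, the mitotic one, read 6.73 and 4.53 (4.57-fold lower), and SGO2 read 5.21 and 4.65 (-0.56). The gap between them was 1.63.

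**Figure D2:**
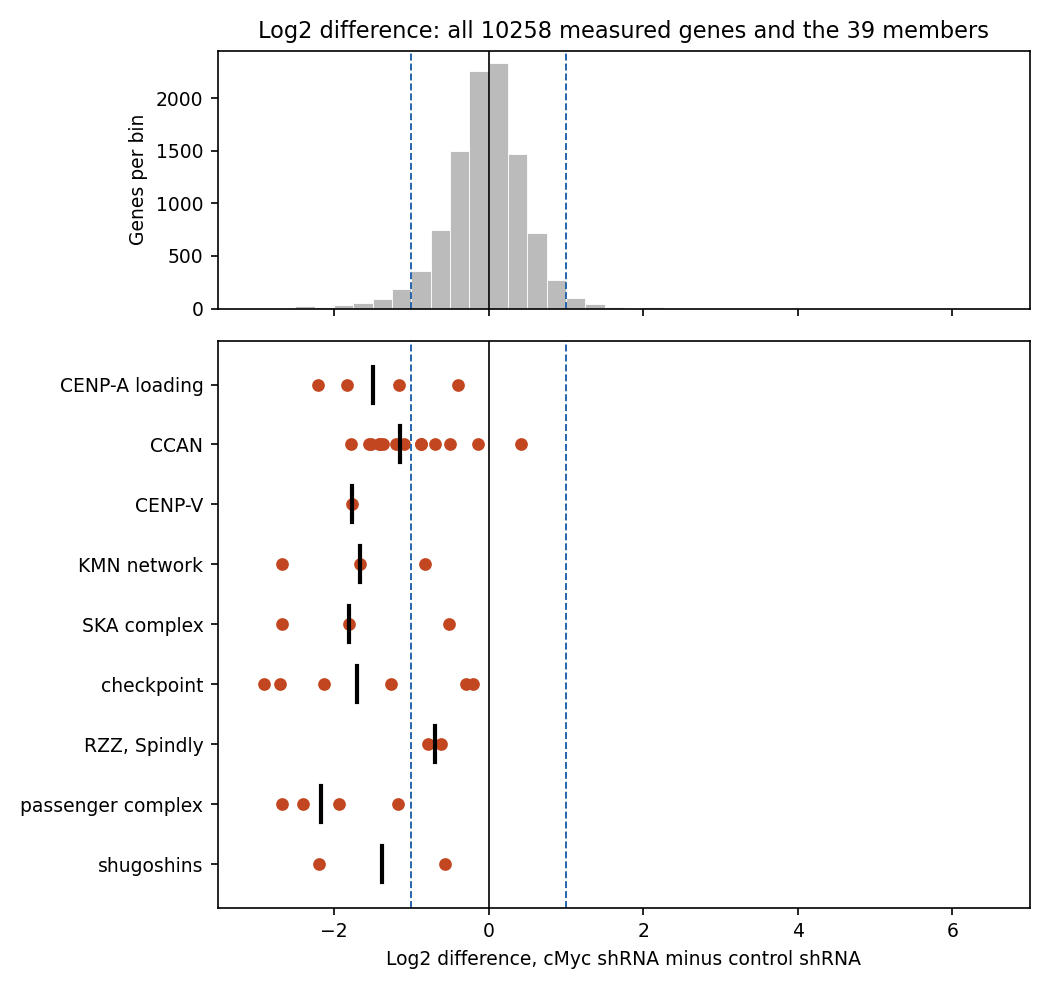
Upper panel, number of measured genes per bin of 0.25 in log2 difference over all 10258 measured genes; lower panel, log2 difference of each member (points) and the median (black bar) by complex. Dashed lines mark 2-fold in either direction, and the 4 passenger complex genes all lie beyond the lower one while both genes of the RZZ and Spindly row lie inside it.

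The rank of the members among all measured genes shows the same unevenness. Of the 39, 15 were among the 100 lowest measured genes. At the other end, BUB3, MAD1L1 and CENPT had 2739, 3435 and 3937 measured genes below them, and CENPC, the highest member, had 8635. The member nearest to the 2-fold rule on its inner side was CENPH at -1.10 and on its outer side CENPX at -0.88. At least 1.5-fold lower were 31 members, beside 11.9% of measured genes.

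Promoter sequence was a feature that the choice of members did not use. Of the 39 members, 30 had an entry in the RefSeq promoter table, whose windows run from 250 bases before to 50 after the start. TTK, KNL1, BIRC5, KNTC1, MIS18A, BUB3, CENPH, CENPL and CENPM had none. Where a gene had several starts, as 5 members did, the first listed was taken. Motifs were searched on both strands, with overlaps between motifs allowed.

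A CHR element (TTTGAA or TTCGAA) was in 18 of the 30 member promoters, or 60.0%. The same letters were in 16.4% of all 35116 promoters of this length and in 11.3% of the 7900 promoters of measured genes. In members the matches clustered at the start: 17 of 19 began from 50 bases before to 50 after it, in 16 genes. In that narrower window, chosen after the positions were seen, 53.3% of members and 3.25% of measured genes had a match. All 3 genes of CENP-A loading with an entry had one (CENPA, HJURP and OIP5), and so did both KMN genes with an entry (NDC80 and ZWINT) and 3 of 4 checkpoint genes. In the CCAN 4 of 11 did.

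Members with a CHR match in the whole window had a median log2 difference of -1.68, and 14 of 18 were at least 2-fold lower. The 12 without one had a median of -1.04, and 6 were at least 2-fold lower. The groups overlapped widely. CENPC, the 1 member above 0, has a match, and AURKB, at -1.94, has none. Over all measured genes with an entry, those with a match in the whole window had a median of -0.06 and those without one -0.01. With a match in the last 200 bases of the window the median was -0.13, and with one in the narrower window chosen after the positions were seen -0.26.

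**Figure D3:**
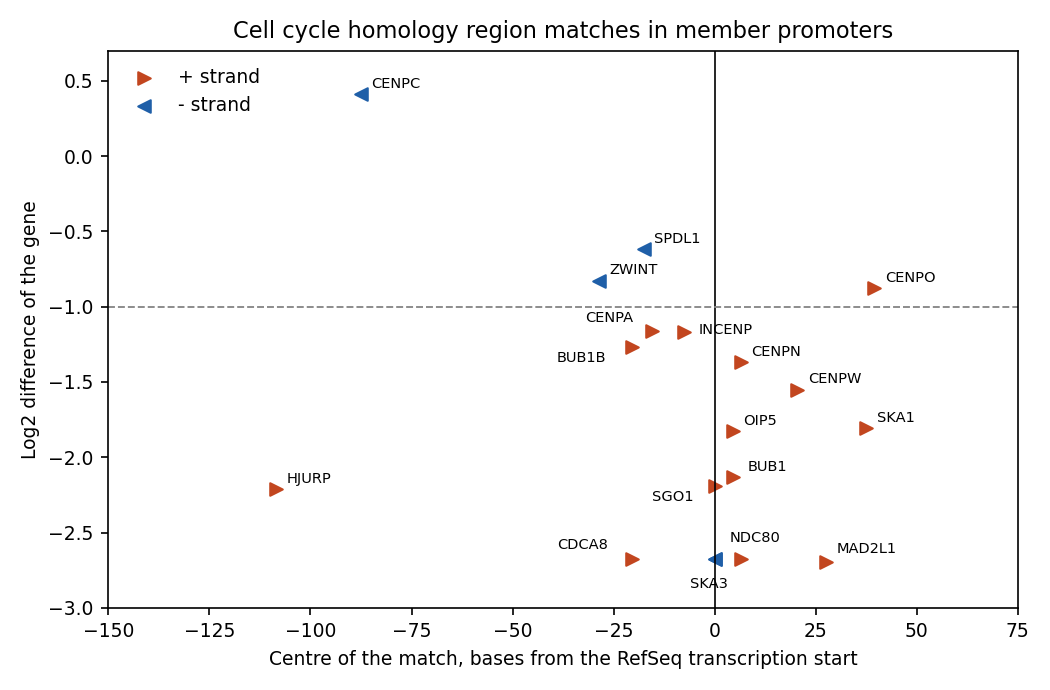
Position of each CHR match relative to the RefSeq transcription start (horizontal axis, bases) against the log2 difference of its gene (vertical axis), for the 18 members with a match; triangles give the strand and the dashed line 2-fold lower. Matches crowd around the start, with HJURP and CENPC as the 2 outside 50 bases; the points of SKA3 and of 1 of the 2 NDC80 matches coincide, and TTCGAA, which reads the same on both strands, is drawn on the plus strand.

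The other motifs were counted in the same way. The CCAAT box, the site of the NF-Y factor, was in 66.7% of member promoters, 34.6% of all promoters and 36.2% of those of measured genes. Members with a CCAAT box had a median of -1.44 and those without one -1.33, but the order turned in the last 200 bases, at -1.20 with a box and -1.55 without. A CHR element and a CCAAT box stood together in 13 member promoters (43.3%) and in 6.58% of promoters counted once per gene. The E-box CACGTG, the core letters bound by MYC and MAX, was in 2 member promoters (6.67%), those of SGO1 and CENPP, beside 7.26% of all promoters and 9.87% of those of measured genes. E2F letters (TTTCCCGC, TTTCGCGC, TTTGCCGC or TTTGGCGC) were in 3 member promoters (10.0%), of CENPA, CENPU and OIP5, beside 3.31% of all and 5.24% of those of measured genes. In the last 200 bases 1 member promoter held them (3.33%), beside 3.73% of those of measured genes. The GC box GGGCGG was in 63.3% of member promoters, 45.0% of all promoters and 68.3% of those of measured genes. That these letters are absent from a window says nothing of the factor.

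Several members share a short stretch of DNA with a gene that runs the other way, and most of these neighbours lay closer to 0 than the member. Only the 30 members with a promoter entry were searched, and only for neighbours with an entry of their own. Within 1000 bases upstream of such a member's start, a measured gene on the opposite strand began in 10 cases. The farthest lay at 560 bases, and neighbours not named on the array were left out. Members were chosen with mitotic genes known to be low, so most genes set beside them would lie closer to 0. Of these 10 neighbours, 2 passed 2-fold on the lower side, as 4% of measured genes did. On the higher side 0 passed it, as 2.01% of measured genes did. The median of the neighbours was -0.20, against -0.01 over all measured genes. Of the 10 members, 6 passed 2-fold on the lower side, and their median was -1.28. NDC80 and METTL4, an adenine methyltransferase gene, start 52 bases apart, and METTL4 read 6.11 and 6.02 (-0.09) against -2.67 for NDC80. MRPL57, a mitochondrial ribosomal protein gene 106 bases from SKA3, read 7.23 and 6.89 (-0.34). MMUT, the mitochondrial methylmalonyl-CoA mutase next to CENPQ, was 0.60 higher.

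The 2 low neighbours are themselves cell cycle genes. NUSAP1, a spindle microtubule protein 290 bases from OIP5, went from 8.62 to 6.25 (5.16-fold lower), with OIP5 at -1.83. PRR11, a proline-rich protein gene 560 bases from SKA2, went from 9.09 to 6.72 (5.19-fold lower). SKA2 lies on the other side of the same interval, which carries the CCAAT boxes shown above, and its own log2 difference was -0.51. This pair is the reverse of the SKA3 and NDC80 pairs, in which the member was the low side. In 8 of the 10 pairs the member had the lower difference, which the choice of members largely fixed.

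**Figure D4:**
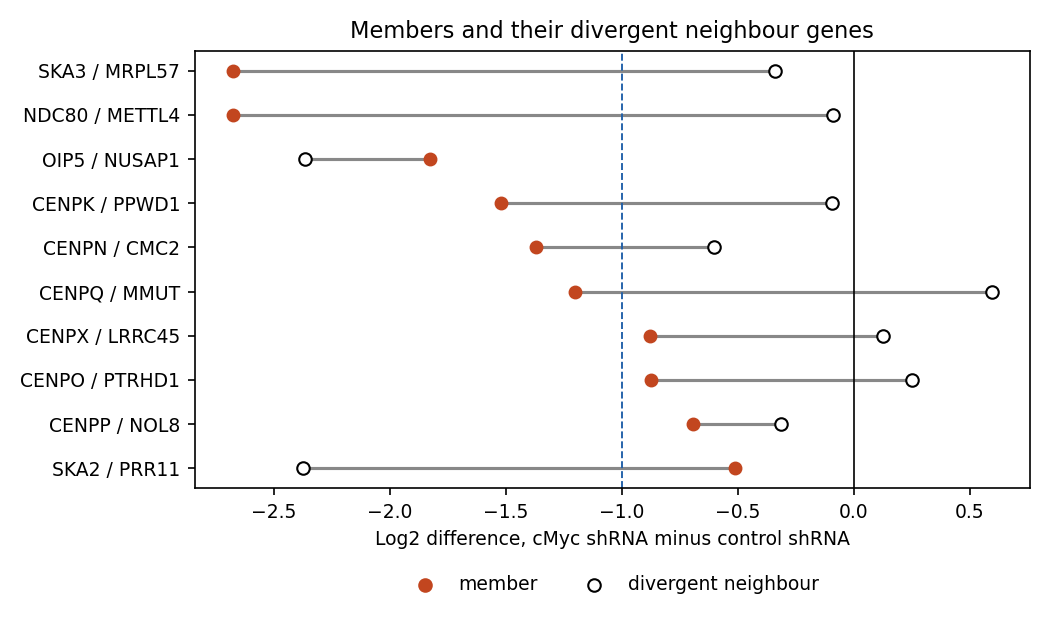
Log2 difference (horizontal axis) of 10 members (orange) and of the measured gene that starts within 1000 bases upstream on the opposite strand (open circles); the dashed line marks 2-fold lower. Neighbours other than NUSAP1 and PRR11 lie within 2-fold, from -0.60 (CMC2, beside CENPN) to 0.60 (MMUT, beside CENPQ).

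Other genes of chromosome segregation were lower in part. Of 68 listed genes outside the members, 58 were measured. Their median was -0.36, and 17 (29.3%) passed 2-fold on the lower side, beside 4% of all measured genes. On the higher side 0 passed it, beside 2.01%. The same 4% stands beside the lower counts of each list below. These lists were chosen with earlier results of these arrays known, so the shares describe them and are no support. Among other kinetochore and centromere genes, 6 of 14 were at least 2-fold lower. PLK1, the kinase recruited by CENPU and BUB1, went from 10.2 to 7.41 (6.73-fold lower), and KIF2C, a microtubule-depolymerising kinesin of the centromere, from 7.04 to 4.43 (-2.61). CLASP1, a microtubule plus-end protein, was highest at 0.31. ITGB3BP, which encodes CENP-R, the fifth protein of the subcomplex of CENPU, read 5.55 and 5.37 (-0.17).

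Targets and regulators of the checkpoint had differences on both sides of 0. CDC20, the activator that the checkpoint inhibits, went from 9.23 to 6.86 (-2.38), and TRIP13, which dismantles the inhibitor, from 8.24 to 5.99 (-2.25). Over this list the median was -0.21 with 5 of 21 past 2-fold on the lower side, and CDC16, a core subunit of the anaphase-promoting complex, was highest at 0.48. Cohesin and its regulators, which act on the chromatids that kinetochores pull apart, had a median of 0.05. Of these 13 genes, 1 (7.69%) was at least 2-fold lower, near the 4% of measured genes. ESCO2, an acetyltransferase of cohesin in S phase, read 6.54 and 4.54 (-1.99), CDCA5, or sororin, had -0.98, and REC8, the meiotic subunit, was highest at 0.58.

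Transcription factors that act on CHR promoters had a median of -0.78, and 5 of 10 measured genes were at least 2-fold lower. FOXM1 read 7.97 and 5.23 (-2.74) and MYBL2, or B-MYB, 7.19 and 5.32 (-1.87). LIN37, a MuvB subunit, was highest at 0.34, and LIN54, the MuvB subunit that contacts the CHR, was at -0.51.

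**Figure D5:**
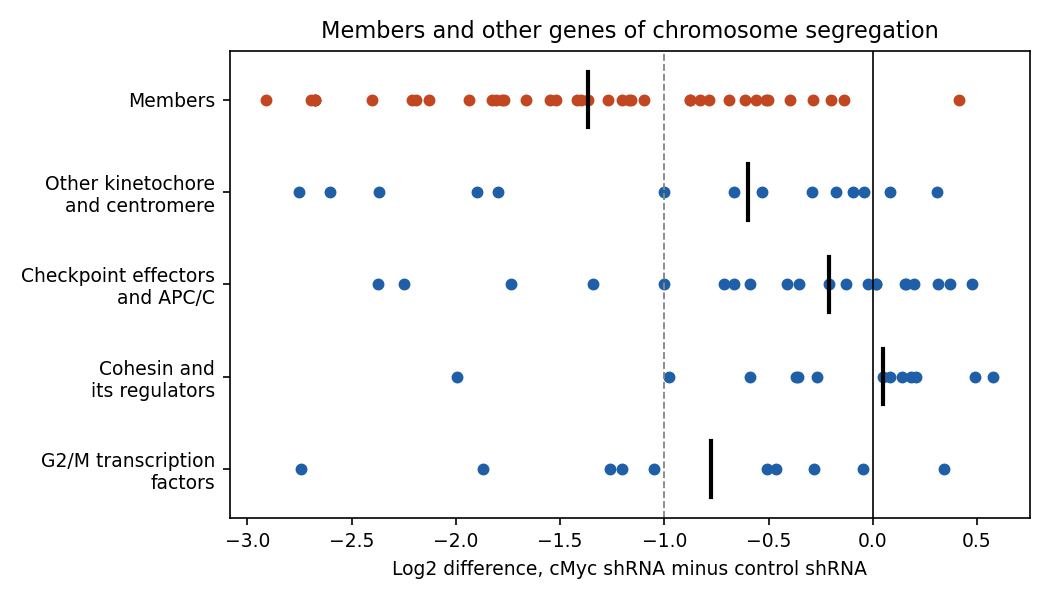
Log2 difference (horizontal axis) of the 39 members (orange) and of 4 lists of other segregation genes (blue), with the median as a black bar and 2-fold lower as a dashed line. The member median is -1.37, and the cohesin median lies at 0.05.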

How the data were processed

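The authors' deposited table holds log2 expression levels for 53617 probe sets on 2 arrays, and runs from 1.41 to 13.9, from which base 2 was inferred. Values were made with Affymetrix Expression Console, per the submitters' processing notes; the sources used here give no version, background correction or normalization. Array medians were 3.68 (control) and 3.73 (cMyc shRNA). Gene names came from the platform annotation (16098 probe sets with 1 symbol, 0 with several, 37519 unnamed here). Each gene was represented by its probe set of highest mean. Precision is limited by having 2 arrays.

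With 1 array per group, a fixed rule of at least 2-fold replaced a test. The members and lists were chosen with earlier results of these data known. Every member is named, with MYC. So are the 2 lowest and the highest gene of each segregation list, and the lowest and highest of the other lists. Promoters were chosen by complex. MAD2L1, ITGB3BP, LIN54, EPCAM, FN1, S100A4 and the neighbours were named after their values were seen. Promoters and gene identities came from RefSeq tables (GRCh38.p14), and no coordinates are given for probe sets, since no build is named for them. Alternatives were other scalings, level filters, probe set rules, size rules and promoter windows. Calculations used Python 3.11.15 with pandas 2.3.3, numpy 2.4.6 and, for loess, statsmodels 0.14.6, and were tested on simulated data.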

Additional observations from a re-analysis of the deposited data

How the results depend on the processing

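Aligned array medians, quantile normalization and loess each gave 25 members at least 2-fold lower and member medians from -1.41 to -1.32. Sorted values of both columns differed by at most 0.12 as deposited, so aligning medians or quantiles could change little. No value of a single member moved by more than 0.07 under these scalings. Averaging probe sets could move none, because each member has 1 probe set. The size rule moved counts by construction. At 3-fold 15 members, 11 other segregation genes and 1.10% of measured genes were lower, and at 1.5-fold 11.9% of measured genes were. Second probe sets, which neither MYC, any member nor any other segregation gene has at a measured level, gave 2.64% of measured genes. The level filter at the 75th percentile kept 29 members, 17 of them at least 2-fold lower, beside 5.17% of the genes it kept; with fewer genes the KMN median was -1.25 and the CCAN median -0.88, over 8 genes and no longer past 2-fold. In the window from 50 bases before to 50 after the start, which is shorter by construction and was chosen after seeing the data, the shares of member promoters were 33.3% for the CCAAT box, 0.0% for E2F letters and 36.7% for the GC box, beside 9.99%, 1.72% and 40.4% of promoters of measured genes. Counting any listed start, also chosen after seeing the data, left the CHR share of member promoters at 60.0%. Among measured genes that share was 15.1%, against 11.3% with the first listed start. No paired analysis was possible because each group has 1 array. Depth cannot be stated for arrays without detection calls, and OIP5 is the 1 member whose cMyc shRNA level lay below the median of all probe sets.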
